A study of Mus musculus with 8 samples.

Results

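The effect of laminin-511 coating that mouse embryonic stem cells showed alike in both media was examined by setting all 4 libraries from laminin-511 against all 4 libraries from gelatin, with the medium as a term of the model. Of 10278 genes tested, 904 had libraries that did not overlap between coatings in either medium, differed in the same direction in both, and had a smaller log2 difference that was at least 0.5 of the larger (8.8% of genes). Of those 904 genes, 31 also passed the limma test of the coating at a Benjamini-Hochberg adjusted p under 0.05, and these are called shared coating genes. 19 of them were higher on laminin-511 and 12 were lower.

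The cells were the male C57BL/6J line Bruce 4, all of them wild type, and RNA was taken after 2 weeks of culture. The 4 groups were gelatin in Std medium, LM511 in Std medium, gelatin in 2i medium and LM511 in 2i medium, with 2 libraries each that the design text calls biological replicates. LM511 is the name that the sample titles give to laminin-511, which the culture labels write as LN511. The labels do not give the composition of Std, and all groups come from 1 cell line. Where nothing says that replicates came from separate cultures, the p-values measure only the spread between these libraries.

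Laminin-511 is a basement membrane protein of the early embryo that cells bind mainly through integrin alpha6 beta1, while gelatin is denatured collagen, to which cells attach largely through fibronectin. Bound integrins link the matrix to actin filaments, and tension on these filaments feeds the transcription regulators YAP and SRF. 2i is a medium with inhibitors of the kinases MEK and GSK3 that holds the cells in a naive pluripotent state.

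Levels are in FPKM, which scales fragments to the length of the transcript and the depth of the library, summed here over the RefSeq transcripts of a gene. The 8 libraries listed 9477 to 9754 genes at 1 FPKM or more. Replicates correlated across genes at r = 0.959 to 0.964 on the log2 scale, and libraries of different groups at 0.907 to 0.955. The files give no read counts, so the depth behind a value is unknown. The summed level of the 10 embryonic stem cell markers with a value, of 11 on the list (among them Pou5f1, Sox2 and Nanog) was 2388 to 2819 FPKM over the 8 libraries. The coatings overlapped in that sum in each medium. Pou5f1 alone was at 949 to 1245 FPKM, so the sum says little about the other members, of which some are described below. Defining markers of primitive endoderm were low. The highest value in any library was 0.863 FPKM for Gata4, 0.576 for Gata6, 0.266 for Sox17, 1.93 for Dab2 and 1.55 for Sox7. Col4a1, Sparc and Lrp2, on the same list of markers, reached higher levels and are described with the matrix genes. Sox7 was at 0 and 0.126 FPKM on gelatin and 1.55 and 0.787 on LM511 in Std, and at 0.241 and 0.453 against 0.318 and 0.259 in 2i.

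The coating called 32 genes over both media, 0.311% of those tested, 20 higher on LM511 (0.195%) and 12 lower (0.117%). The additive model puts any difference between the media into its residual, so it favours genes with equal differences, and 31 of the 32 called genes met the rule of shared size as well. Without the test, that rule took in 545 genes higher on LM511 (5.3% of those tested) and 359 lower (3.49%), so 60.3% of them were higher. The split depended on the scaling of the libraries: it was 404 higher and 428 lower (48.6% higher) after quantile normalization and 432 higher and 388 lower (52.7% higher) after median scaling. Another 517 genes moved in the same direction in both media without overlap but by unequal sizes, 286 of them more in Std, and 872 genes (8.48%) were separated in opposite directions. Across all genes tested, the differences in Std and 2i had a Pearson r of 0.085, with genes as the points and no shared library. Group separation with 2 libraries a side is common by itself: in Std alone 28.7% of genes were separated upwards on LM511 and 20.7% downwards, and in 2i 22.2% and 20.7%.

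**Figure D1:**
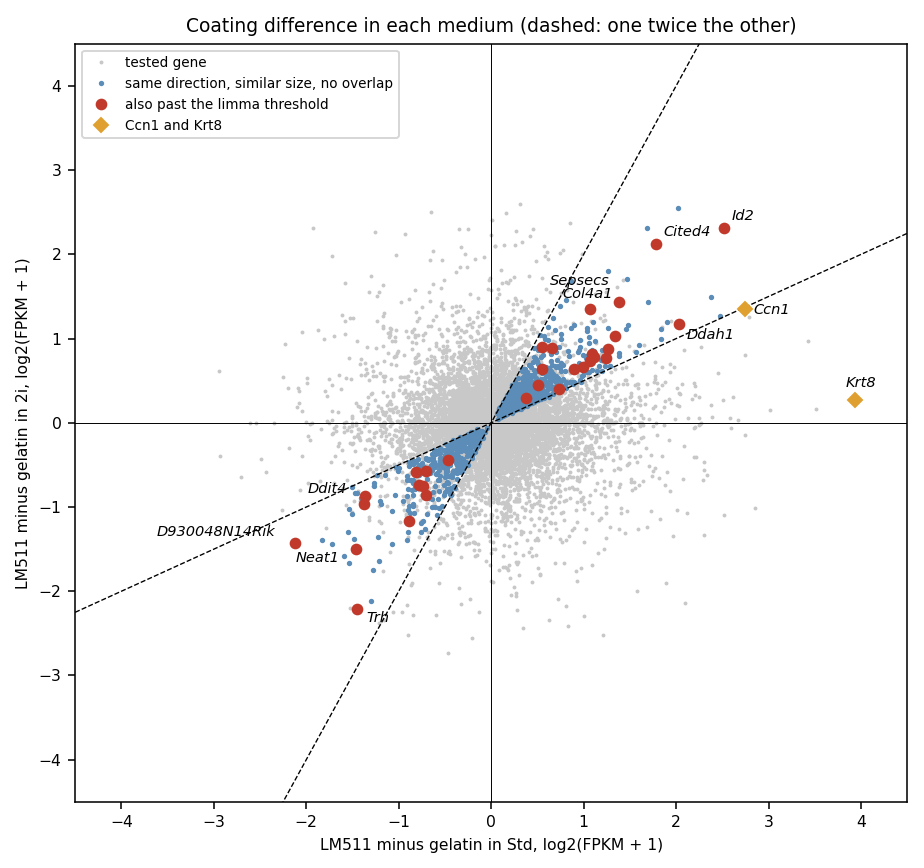
LM511 minus gelatin difference in log2(FPKM + 1) of each gene tested in Std (horizontal) and 2i (vertical); dashed lines mark where one difference is double the other. The 904 genes of the rule of sign, size and separation are in blue, the 31 that also passed the limma threshold are in red, and Ccn1 (2.74 and 1.35) and Krt8 (3.93 and 0.27), whose differences were larger in Std, are diamonds.

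The shared coating genes were more abundant than most, with a median level of 41.8 FPKM against 8.26 FPKM for all genes tested. The median of the 904 genes of the rule was 15.7 FPKM. Differences of low genes are understated on the log2(FPKM + 1) scale, so the choice of genes can itself favour abundant ones. Their smallest difference was 0.33 on the log2 scale, and the ratio of the smaller to the larger difference ran from 0.549 to 0.988 with a median of 0.752. 13 of the 19 higher genes and 7 of the 12 lower genes had the larger difference in Std. Tested within a medium, 24 of the 31 passed in Std and 0 in 2i at an adjusted p under 0.05 (limma). All 31 had an unadjusted p under 0.05 in each medium. They were chosen by their separation in these same libraries, so that count is no separate support. The whole table gave 158 higher (1.54%) and 58 lower (0.564%) genes in Std, and 2 higher (0.0195%) and 0 lower (0.0%) genes in 2i, where 669 were higher and 559 lower at an unadjusted p under 0.05. None of the 31 was called for the interaction of coating and medium, for which 19 genes (0.185%) were called in all. The limit on size and the additive model both select against an interaction, so this count follows largely from the choice of genes. For 7 of them (Ddah1, Calcoco2, Bex1, Sparc, Ddit4, Gsto1 and Mat2a) the 95% interval of that difference did not include 0, and over the 31 the bounds ran from -1.54 to 1.54 on the log2 scale.

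The upstream sequences of 5 shared coating genes are shown because these genes carry the account below. Id2, Tpm4, Bex1 and Ddit4 had the lowest adjusted p of the shared genes with a sequence, and Bnip3 stands for the list of glycolysis and hypoxia genes. Each is the 250 bases before the transcript start, 5′ to 3′ on the strand of the gene, from RefSeq promoters of GRCm38.p6. The positions are chr12:25096093-25096342 (minus strand) for Id2, chr8:72135038-72135287 (plus strand) for Tpm4, chrX:136215514-136215763 (minus strand) for Bex1, chr10:59951771-59952020 (minus strand) for Ddit4 and chr7:138909507-138909756 (minus strand) for Bnip3. Capitals mark the KLF/SP motif GGGCGG on either strand, and matches may overlap.
Id2: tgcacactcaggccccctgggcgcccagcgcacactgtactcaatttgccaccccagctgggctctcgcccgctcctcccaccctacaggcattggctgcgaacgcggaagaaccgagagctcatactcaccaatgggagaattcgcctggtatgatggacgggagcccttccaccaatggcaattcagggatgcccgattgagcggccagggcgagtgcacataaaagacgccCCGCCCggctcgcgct
Tpm4: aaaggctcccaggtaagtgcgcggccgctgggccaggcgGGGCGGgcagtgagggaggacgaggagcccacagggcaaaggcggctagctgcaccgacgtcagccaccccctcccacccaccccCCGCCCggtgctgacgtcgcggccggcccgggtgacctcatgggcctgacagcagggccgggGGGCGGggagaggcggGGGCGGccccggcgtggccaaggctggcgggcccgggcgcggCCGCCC
Bex1: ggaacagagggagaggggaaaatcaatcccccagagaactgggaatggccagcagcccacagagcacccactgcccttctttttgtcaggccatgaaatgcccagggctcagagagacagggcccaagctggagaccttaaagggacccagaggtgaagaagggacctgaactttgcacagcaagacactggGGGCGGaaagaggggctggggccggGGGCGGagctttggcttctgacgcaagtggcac
Ddit4: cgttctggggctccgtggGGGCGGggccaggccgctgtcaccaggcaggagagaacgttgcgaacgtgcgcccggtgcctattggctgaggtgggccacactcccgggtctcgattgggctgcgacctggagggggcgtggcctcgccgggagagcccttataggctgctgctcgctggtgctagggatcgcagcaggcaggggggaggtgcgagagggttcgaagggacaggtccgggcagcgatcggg
Bnip3: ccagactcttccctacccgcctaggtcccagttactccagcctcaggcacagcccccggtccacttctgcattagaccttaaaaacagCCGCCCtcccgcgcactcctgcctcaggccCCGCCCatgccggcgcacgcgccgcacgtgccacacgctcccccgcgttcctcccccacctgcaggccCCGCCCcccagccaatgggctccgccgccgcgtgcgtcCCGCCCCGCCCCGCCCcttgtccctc

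The KLF/SP motif occurred 1 time in the Id2 sequence, 5 times in Tpm4, 2 times in Bex1, 1 time in Ddit4 and 6 times in Bnip3. It was in 20 of the 28 windows (71.4%) that the table held for 25 of the shared coating genes, against 59.0% of 10425 windows of all genes tested and 32.7% of 32851 windows in the table. Windows of the shared genes had a median GC content of 63.4%, those of the genes tested 60.0% and all windows 52.4%, and a GC-rich motif moves with that content. The TEAD motif GGAATG was in 1 of the 28 windows (Bex1, 3.6%, against 10.7% of the tested genes' windows) and the AP-1 motif TGANTCA in 1 (D930048N14Rik, 3.6% against 4.2%). An E-box, CACGTG, was in 2 (Actg1 and Bnip3, 7.1% against 8.6%), and the SRF CArG box in 2 (Actg1 and Gsto1, 7.1% against 1.1%). Both strands were searched. A match describes these letters only, and the window is short. The table had no window for 6 shared genes: Calcoco2, Ccn2, Fn1, Neat1, Sepsecs and Sfrp1.

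The actin cytoskeleton genes Tpm4, Tmsb4x and Actg1 and the nuclear lamina gene Lmna were higher on LM511 in both media and passed the test over both. Tpm4 (chr8:72135288-72153142), a tropomyosin that winds along actin filaments, was at 43.8 and 38.7 FPKM in the gelatin Std libraries and at 89.4 and 88.3 in LM511 Std. In 2i it was at 57.8 and 58.0 FPKM on gelatin and at 103 in both LM511 libraries. Every LM511 library therefore stood above every gelatin library, across the media too. The coating difference was 0.96 ± 0.08 (SE, 4 libraries a coating) on the log2(FPKM + 1) scale, with an adjusted p of 0.00894 (limma), and its size was 1.09 in Std and 0.82 in 2i. The interval of the difference between media, -0.57 to 0.03, held 0. In bulk RNA, a change in the share of cells of one kind and a change in RNA per cell cannot be told apart, here and in all results that follow.

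Lmna, which encodes the nuclear lamins A and C, had 12.4 and 13 FPKM on gelatin and 22.6 and 18.9 on LM511 in Std. Its level was higher in 2i, with 23.0 and 26.5 FPKM on gelatin and 44.3 and 49.4 on LM511. The coating difference of 0.78 ± 0.11 (adjusted p = 0.0401) stood beside a medium difference of 1.03 (2i minus Std, adjusted p = 0.000541), so the gelatin libraries in 2i lay above those on LM511 in Std. Tmsb4x, encoding thymosin beta 4, which binds actin monomers, went the other way with the medium. It had 259 and 287 FPKM on gelatin and 549.6 and 472 on LM511 in Std, then 139 and 124 on gelatin and 192 and 218 on LM511 in 2i. Its coating difference was 0.77 ± 0.09 (adjusted p = 0.0218) and its medium difference -1.18 (adjusted p = 8.27e-05).

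Cytoplasmic gamma-actin, Actg1, was the most abundant of these and the least changed of all 31 shared genes. It measured 1330.3 and 1281 FPKM on gelatin against 1677 and 1720.2 on LM511 in Std, and 1197 and 1163 against 1374 and 1514 in 2i. The libraries did not overlap, the difference was 0.33 ± 0.05 and the adjusted p was 0.0401. Beta-actin, Actb, was not called (0.38 ± 0.09, adjusted p = 0.161), with 974 and 827 FPKM on gelatin and 1275 and 1391 on LM511 in Std but 1206 and 1157 against 1303 and 1379.8 in 2i.

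Of 28 tested genes on the list of focal adhesion and actin cytoskeleton, 8 met the rule of sign, size and separation upwards and 1 downwards, where the background is 5.3% and 3.49%. Only Actg1 and Lmna of them passed the limma test. The other members were Parva (0.91), Myl12a (0.47), Vasp (0.34), Pfn1 (0.30), Fermt2 (0.26) and Cfl1 (0.23) upwards and Lims1 (-0.17) downwards, log2 differences that did not pass. They include integrin-linked adaptors (Parva, Fermt2, Lims1) and regulators of actin assembly (Vasp, profilin Pfn1, cofilin Cfl1). The median difference of the list was 0.34 over both media, 0.55 in Std and 0.16 in 2i, beside 0.03, 0.05 and 0.00 for all genes tested. Of 8 tested genes on the list of tropomyosin, calponin and transgelin, 3 met the rule upwards (Tpm4, Tpm3 at 0.31 and Tpm2 at 0.67, of which Tpm4 passed the test), and the median was 0.62.

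**Figure D2:**
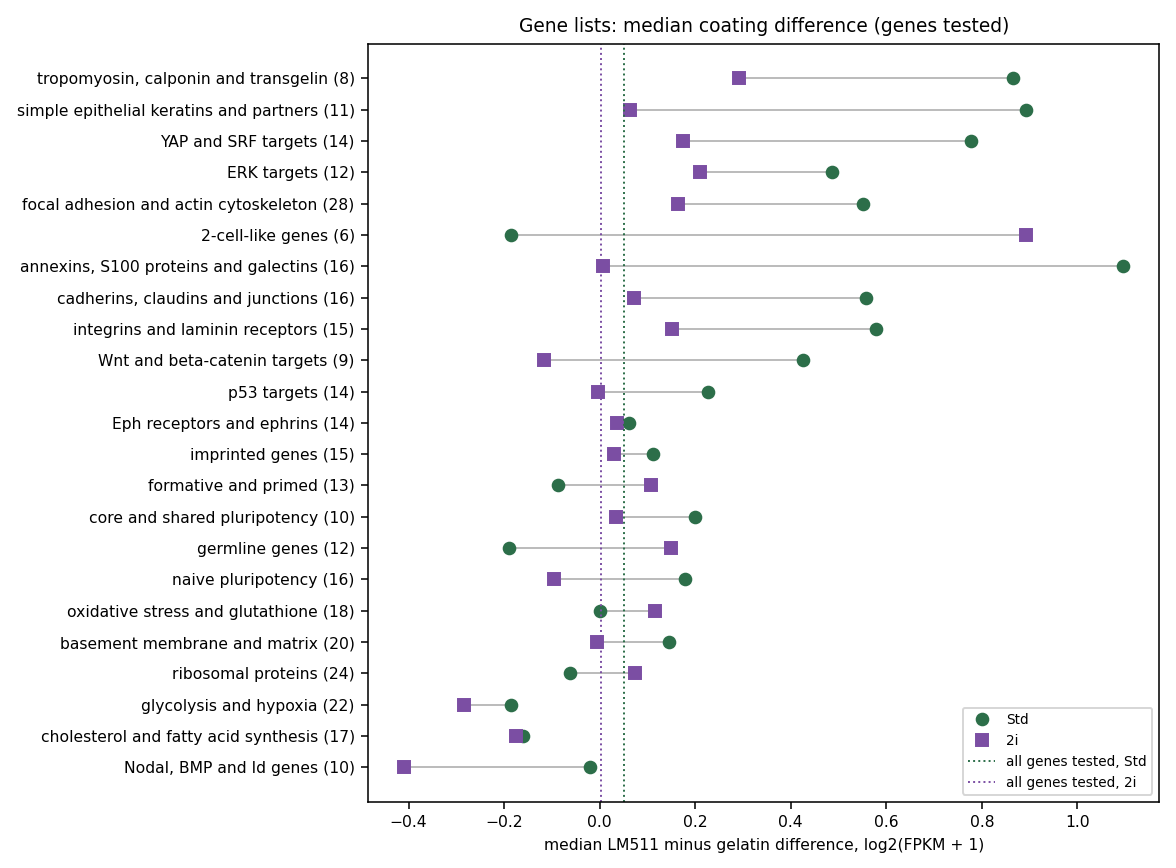
Median LM511 minus gelatin difference in log2(FPKM + 1) of 23 gene lists in Std (green circles) and 2i (purple squares), with the number of genes tested in brackets; dotted lines are the medians of all genes tested, 0.05 and 0.00. The tropomyosin list has 0.87 in Std and 0.29 in 2i, the keratin list 0.89 and 0.06, and the glycolysis and hypoxia list -0.19 and -0.28.

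Genes of the extracellular matrix moved in both directions. Col4a1 (chr8:11198423-11312889), the alpha1 chain of the basement membrane collagen IV, was at 6.52 and 5.98 FPKM on gelatin and at 13.2 and 15.2 on LM511 in Std. In 2i the values were 3.27 and 3.96 on gelatin and 11 and 10.5 on LM511. All LM511 libraries were above all gelatin libraries, by 1.21 ± 0.15 (adjusted p = 0.0245), with 1.07 in Std and 1.35 in 2i. Sparc, a secreted protein that binds collagen, rose from 45.4 and 48.1 FPKM to 93.5 and 95.2 in Std and from 115 and 105 to 165 and 185 in 2i. Its difference was 0.83 ± 0.09 (adjusted p = 0.0217), of 1.00 in Std and 0.66 in 2i. Htra1, a secreted serine protease, had 2.81 and 4.31 FPKM on gelatin and 12.3 and 8.79 on LM511 in Std, and 23.6 and 22.8 against 49.8 and 47.5 in 2i. It was higher by 1.19 ± 0.16 (adjusted p = 0.0343) with the coating and by 2.27 (adjusted p = 5.91e-05) with 2i.

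Fibronectin, Fn1 (chr1:71585473-71653280), fell on LM511 by nearly the same log2 amount in both media. The gelatin libraries had 90.8 and 95.6 FPKM in Std and 233 and 235 in 2i. The LM511 libraries had 61.4 and 50.2 FPKM in Std and 156 and 124 in 2i. Each LM511 library lay below the gelatin libraries of its medium, and the 2i libraries lay above all Std libraries. The coating difference was -0.74 ± 0.09 (adjusted p = 0.0249), -0.74 in Std and -0.75 in 2i, and the interval of the difference between media ran from -0.47 to 0.45. Its 2i minus Std difference was 1.32 (adjusted p = 5.99e-05).

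On the list of basement membrane and matrix, 20 genes were tested. 4 met the rule upwards (Col4a1, Sparc, the laminin chain Lama1 and the protease inhibitor Timp3) and 1 downwards (Fn1), where the background is 5.3% and 3.49%. Col4a1, Sparc and Fn1 passed the test, while Lama1 differed by 1.00 ± 0.21 with an adjusted p of 0.117 and Timp3 by 0.25. Timp3 was at 1.46 FPKM or less in every library. The list's median was 0.01. Col4a1 and Sparc are also made by primitive endoderm, and the summed level of 16 markers of that lineage was 61.0 to 66.9 FPKM on gelatin and 129.7 to 134.0 on LM511 in Std, and 111.8 to 122.2 against 180.3 to 200.6 in 2i. Sparc accounts for most of that sum. Of the 16 markers, 10 were under 1 FPKM in every library and 3 were at 0 in all. Of the 5 tested, Col4a1 and Sparc met the rule upwards, and the median difference was 0.83. Lrp2 was separated upwards in both media too, but by unequal sizes and without passing the test (0.84, adjusted p = 0.137). It had 6.30 and 8.66 FPKM on gelatin and 17.8 and 17.0 on LM511 in Std, and 1.46 and 1.44 against 2.64 and 2.52 in 2i. The part of such cells in the shared differences was not tested.

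CCN2 and CCN1 are secreted matricellular proteins whose genes are standard targets of YAP and SRF. Ccn2 had 9.56 and 10.8 FPKM on gelatin and 21.5 and 30.8 on LM511 in Std, and 16.2 and 17.7 against 34.7 and 29.5 in 2i. All 4 LM511 libraries were above all 4 gelatin libraries, by 1.07 ± 0.15 (adjusted p = 0.04), with 1.26 in Std and 0.88 in 2i. Ccn1 (chr3:145646971-145649985) was the 1 called gene that missed the limit on size, with a ratio of 0.492. It rose from 11.3 and 10.4 FPKM to 77.7 and 78.4 in Std and from 16.9 and 16.1 to 43.0 and 44.0 in 2i. The difference of 2.04 ± 0.26 (adjusted p = 0.0245) was made of 2.74 in Std and 1.35 in 2i, and these differed from each other (interaction -1.39, interval -1.76 to -1.02, adjusted p = 0.0415).

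Of 14 tested YAP and SRF targets, 4 met the rule upwards (Ccn2, Ajuba, Ptpn14 and Arhgef17) and 1 downwards (Nt5e), against 5.3% and 3.49% of all genes tested. Ccn2 and, outside the rule, Ccn1 passed the test. The LIM protein gene Ajuba differed by 0.45, the phosphatase gene Ptpn14 by 1.10, Arhgef17 by 0.88 and Nt5e by -0.67, none of them called. In Std, Arhgef17 had 3.30 and 0 FPKM on gelatin and 3.67 and 3.53 on LM511. Its size there rests on the listed 0, which can be a failed estimate. The list's median was 0.78 in Std and 0.17 in 2i. The genes nearest to the limit on size from within were Mat2a, with a ratio of 0.549, and Ddah1, with 0.577.

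No receptor for the coating passed the test. Itga6, the alpha6 chain of the main laminin-511 receptor, was at 32.9 and 30.3 FPKM on gelatin and at 38.2 and 38.0 on LM511 in Std, and at 29.3 and 27.8 against 27.7 and 27.1 in 2i. Its differences were 0.26 in Std and -0.06 in 2i (adjusted p = 0.693 over both media). Itga5, the fibronectin receptor chain, differed by 1.06 in Std and by -0.94 in 2i. Bcam, a receptor for the alpha5 chain of laminin, had 51.7 and 42.0 FPKM on gelatin and 130.0 and 128 on LM511 in Std but 141 in both gelatin libraries and 161 and 171 on LM511 in 2i. Its libraries did not overlap in either medium, yet the differences were unequal (1.45 and 0.24), and neither the coating (adjusted p = 0.188) nor the interaction (adjusted p = 0.0519) passed. Dag1, encoding the laminin receptor dystroglycan, differed by 0.47 (adjusted p = 0.248), Itgav by 0.78 (adjusted p = 0.546) and Itgb5 by 0.22 (adjusted p = 0.475). Itga3, Itgb1 and Itgb4 were not among the genes tested. Of 15 tested integrins and laminin receptors, 1 met the rule upwards (Itga7, at 1.14 FPKM or less in every library), where the background is 5.3%.

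**Figure D3:**
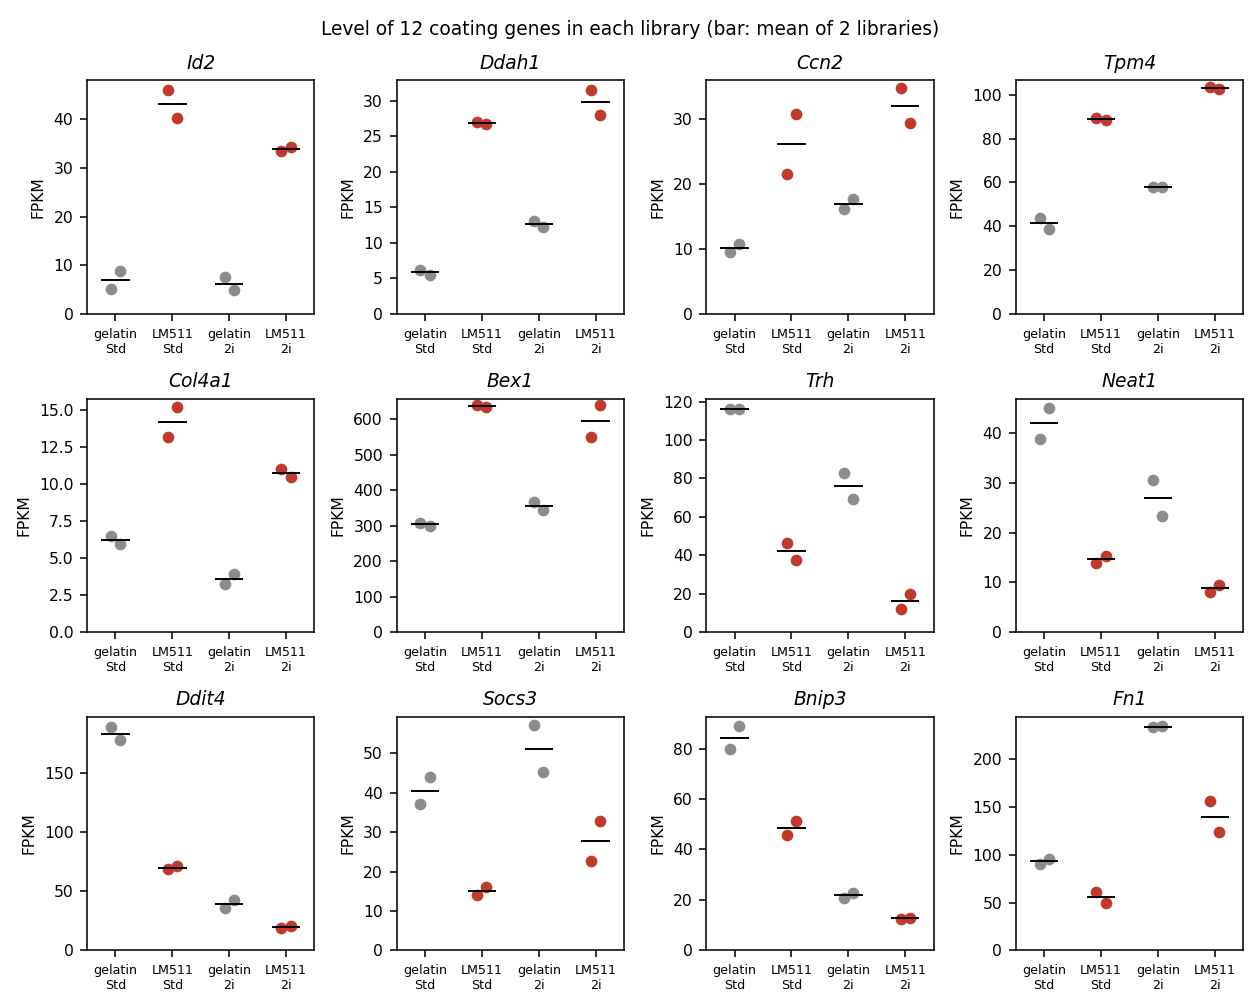
FPKM of 12 genes in each library (points) with the mean of the 2 libraries of a group (bars); gelatin is grey, LM511 red, and each panel has its own axis from 0. In Tpm4, Id2, Ddah1, Ccn2, Col4a1 and Bex1 all 4 LM511 libraries are above all 4 gelatin libraries, and in Trh, Neat1 and Socs3 all 4 are below.

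Id2 (chr12:25093799-25096092) had the highest coating difference of all. It encodes a helix-loop-helix protein without a DNA-binding region, which holds other helix-loop-helix factors away from DNA. The gelatin libraries had 5.06 and 8.74 FPKM in Std and 7.52 and 4.84 in 2i. The LM511 libraries had 46.0 and 40.3 in Std and 33.6 and 34.4 in 2i. All LM511 libraries were above all gelatin libraries, and the media overlapped on gelatin but not on LM511. The coating difference was 2.41 ± 0.19 (adjusted p = 0.00894), 2.52 in Std and 2.31 in 2i, and the medium difference -0.23 (adjusted p = 0.423). The interval of the difference between media was -1.14 to 0.72.

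The related Id1 and Id3, looked up after the value of Id2 was seen, had differences of opposite sign in the 2 media. Id1 had 33.9 and 29.6 FPKM on gelatin and 54.4 and 42.8 on LM511 in Std, but 12.4 and 12.6 against 4.35 and 6.10 in 2i. Its differences were 0.59 in Std and -1.13 in 2i, with an adjusted p of 0.0902 for the interaction. Id3 had 0.39 in Std and -0.78 in 2i, with an adjusted p of 0.172 for the interaction. On the list of Nodal, BMP and Id genes, with 10 tested, Id2 met the rule upwards and Tdgf1 and Skil downwards, against 5.3% and 3.49% of all genes tested. Id2 and Tdgf1 passed the test.

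Tdgf1, which encodes Cripto, the co-receptor of Nodal, was lower on LM511 by a small and even amount. It had 843 and 878 FPKM on gelatin and 617 and 628 on LM511 in Std, and 470.1 and 483 against 334 and 371 in 2i. The difference was -0.45 ± 0.05 (adjusted p = 0.0217), -0.47 in Std and -0.44 in 2i, with an interval of -0.20 to 0.26 for the difference between media. Core pluripotency genes did not pass: Pou5f1 differed by 0.15 (adjusted p = 0.268), Sox2 by 0.12 (adjusted p = 0.433) and Nanog by 0.06 (adjusted p = 0.887). Nor did the naive genes Klf4 (0.21, adjusted p = 0.355) and Zfp42 (0.14, adjusted p = 0.717). Pou5f1 still met the rule of sign, size and separation, with 1015 and 949 FPKM against 1073 and 1113 in Std and 1035 and 1083 against 1109.8 and 1245 in 2i. Nanog differed by -0.26 in Std and by 0.37 in 2i. Of 9 tested embryonic stem cell markers, Pou5f1 met the rule upwards and Tdgf1 and Alpl (-0.53, adjusted p = 0.226) downwards. The background is 5.3% upwards and 3.49% downwards.

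Signalling genes were found among the lower genes. Socs3, a feedback inhibitor of JAK-STAT signalling that LIF induces through STAT3, was at 37.2 and 43.9 FPKM on gelatin and at 14 and 16.1 on LM511 in Std, and at 57.1 and 45.2 against 22.7 and 32.9 in 2i. All LM511 libraries were below all gelatin libraries, by -1.12 ± 0.17, and with an adjusted p of 0.0437 it stood nearest to the threshold of the called genes. Just outside it were Cdc20 (0.47, adjusted p = 0.0505) and Pfdn1 (0.62, adjusted p = 0.0507). Sfrp1, a secreted Wnt antagonist, fell from 11.6 and 11.8 FPKM to 6.38 and 6.10 in Std and from 85.0 in both libraries to 58.3 and 55.0 in 2i. Its coating difference was -0.69 ± 0.10 (adjusted p = 0.0343), and its medium difference was 2.88 (adjusted p = 2.54e-06). Of 9 tested Wnt targets and 12 tested ERK targets, 0 passed the test. At the rule the counts were 0 and 0 for Wnt and 1 up (Spry2) and 1 down (Ier3) for ERK. The background of the rule is 5.3% upwards and 3.49% downwards.

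Trh, the gene for the precursor of thyrotropin-releasing hormone, had the lowest coating difference of the called genes. It was at 116 FPKM in both gelatin libraries and at 46.2 and 37.8 on LM511 in Std, and at 82.9 and 69.1 against 12 and 20.0 in 2i. The LM511 libraries were all below the gelatin libraries, by -1.83 ± 0.20 (adjusted p = 0.0217), -1.45 in Std and -2.21 in 2i, and the interval of the difference between media (-1.54 to 0.02) reached 0.

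Neat1 (chr19:5824708-5845480), the long noncoding RNA on which paraspeckles are built, fell by a like amount in both media. The gelatin libraries had 38.9 and 45.2 FPKM in Std and 30.5 and 23.3 in 2i. The LM511 libraries had 14 and 15.2 in Std and 8.17 and 9.45 in 2i. No LM511 library reached a gelatin library of either medium, and the difference was -1.48 ± 0.12 (adjusted p = 0.00894), -1.46 in Std and -1.5 in 2i, with an interval of -0.64 to 0.56 for the difference between media.

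**Figure D4:**
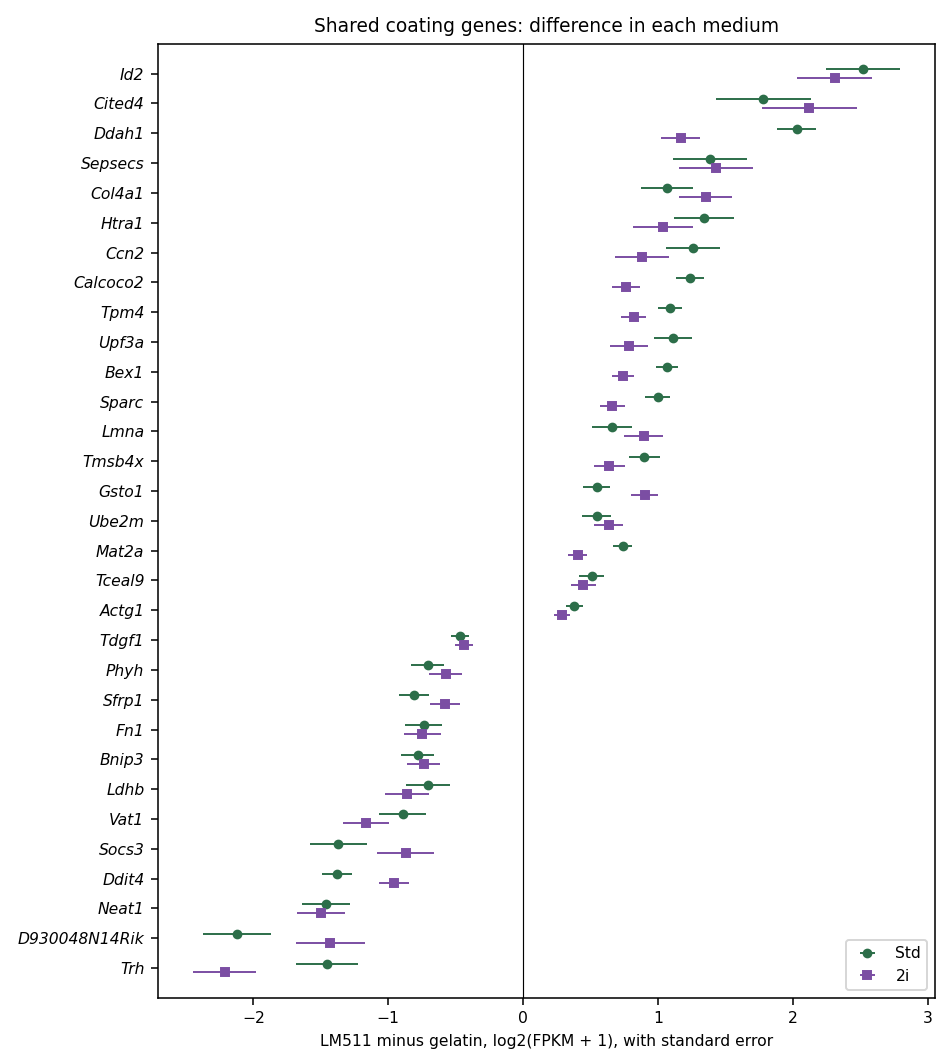
LM511 minus gelatin difference in log2(FPKM + 1) of the 31 shared coating genes in Std (green circles) and 2i (purple squares), with the standard error from limma's fit of group means as lines. 19 genes lie right of 0 and 12 left; the 2 points of Fn1 (-0.74 and -0.75) and Neat1 (-1.46 and -1.5) nearly coincide, and those of Ddah1 (2.03 and 1.17) do not.

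Ddit4 and Bnip3, which low oxygen and energy stress induce in many cells, fell on LM511. Ddit4 (chr10:59949675-59951770), whose product REDD1 restrains the growth kinase complex mTORC1, had 189 and 178 FPKM on gelatin and 68.5 and 71.0 on LM511 in Std. In 2i it had 36.2 and 42.4 FPKM on gelatin and 18.8 and 20.6 on LM511. Both the coating and the medium were large: -1.17 ± 0.11 (adjusted p = 0.00904) for LM511 and -1.98 (adjusted p = 1.55e-05) for 2i, while the coating differences of -1.38 in Std and -0.96 in 2i were 0.42 apart (interval 0.05 to 0.79, adjusted p = 0.36, not past the threshold). Bnip3 (chr7:138890836-138909506), a receptor for the removal of mitochondria and a target of the hypoxia factor HIF1, fell from 79.7 and 88.7 FPKM to 45.8 and 51.4 in Std and from 20.9 and 22.7 to 12.4 and 13 in 2i. Its difference was -0.76 ± 0.09 (adjusted p = 0.0218), -0.78 in Std and -0.74 in 2i, beside a medium difference of -1.88 (adjusted p = 7.58e-06). Within each medium the coatings did not overlap in either gene.

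Of 22 tested genes of glycolysis and hypoxia, 0 met the rule upwards and 5 downwards: Bnip3, Aldoc (-0.89), Ndrg1 (-0.77), Pgk1 (-0.25) and Gpi1 (-0.23). Bnip3 alone passed the test, and the adjusted p of Pgk1 was 0.117. Separated downwards in both media by any size were 10 of the 22, and 0 upwards, where the background is 5.5% and 8.33%. The median of the list was -0.15 over both media, -0.19 in Std and -0.28 in 2i. Under median scaling the count that met the rule downwards was 3. Gapdh, on the same pathway, differed by 0.06 (adjusted p = 0.589).

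Ldhb, the lactate dehydrogenase subunit typical of heart, had 134 and 139 FPKM on gelatin and 87.1 and 80.1 on LM511 in Std, and 53.7 and 70.3 against 37.7 and 29.5 in 2i. It was lower by -0.78 ± 0.11 (adjusted p = 0.0401). Phyh, a peroxisomal enzyme that breaks down branched fatty acids, went from 27.2 and 29.5 FPKM to 15.6 and 18.5 in Std and from 62.6 and 59.7 to 39.5 and 42.1 in 2i (-0.64 ± 0.09, adjusted p = 0.0401). Vat1, a vesicle membrane protein, went from 35.6 and 39.4 to 22.3 and 17.4 in Std and from 46.8 and 58.3 to 24.3 and 21.3 in 2i (-1.03 ± 0.13, adjusted p = 0.0245). Each was separated in both media. In Ldhb and Phyh the medium difference was the larger, at -1.22 and 1.15.

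None of the 17 tested genes of cholesterol and fatty acid synthesis passed the test, and 5 met the rule downwards with 0 upwards, against 3.49% and 5.3% of all genes tested. They were the desaturase gene Scd1 (-0.64, adjusted p = 0.0651), Lss (-0.55), Insig1 (-0.51, adjusted p = 0.0977), Fdft1 (-0.42) and Hmgcs1 (-0.20). The list's median was -0.16 in Std and -0.17 in 2i. Scd1 had 15.7 and 15.5 FPKM on gelatin and 8.96 and 8.72 on LM511 in Std, and 42.3 and 47.6 against 32.4 and 28.9 in 2i.

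Several enzymes rose. Ddah1 (chr3:145758692-145894277), which breaks down asymmetric dimethylarginine, an inhibitor of nitric oxide synthase, had 6.14 and 5.53 FPKM on gelatin and 27.0 and 26.7 on LM511 in Std, and 13.1 and 12.3 against 31.6 and 28.0 in 2i. The difference was 1.60 ± 0.18 (adjusted p = 0.0217). It was 2.03 in Std and 1.17 in 2i, with an interval of -1.34 to -0.37 for their difference and an adjusted p of 0.187, which did not pass. Gsto1, an omega-class glutathione transferase, rose from 38.9 and 44.6 FPKM to 59.6 and 63.3 in Std and from 209 and 197 to 360.1 and 401 in 2i. It rose by 0.73 ± 0.10 (adjusted p = 0.0281), with the larger size in 2i (0.90 against 0.55). Mat2a, which makes the methyl donor S-adenosylmethionine, was at 125 and 118 FPKM on gelatin and 200.1 and 206 on LM511 in Std, and at 113 and 115 against 150.0 and 152 in 2i (0.57 ± 0.08, adjusted p = 0.037). In all 3 genes the coatings were separated within each medium, and in Ddah1 the LM511 libraries stood above every gelatin library.

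A pair of genes close to each other on the X chromosome rose. Bex1 (chrX:136213972-136215513) had 309 and 298 FPKM on gelatin and 640.1 and 635 on LM511 in Std, and 365 and 345 against 549.7 and 641 in 2i. All LM511 libraries were above all gelatin libraries, by 0.90 ± 0.08 (adjusted p = 0.00904), with 1.07 in Std and 0.74 in 2i. Tceal9 (chrX:136245080-136247139) had 96.0 and 94.7 FPKM on gelatin and 135 and 137 on LM511 in Std, and 113 and 119 against 147 and 171 in 2i (0.48 ± 0.07, adjusted p = 0.04). Other members of these families were looked up after those values were seen. Bex3 differed by 0.67 (adjusted p = 0.0722; 0.93 in Std and 0.41 in 2i), Bex4 by 0.29 (adjusted p = 0.248) and Tceal8 by 0.21 (adjusted p = 0.442), none of them called. Members of such families have similar sequences, so the estimates of FPKM may share reads between them.

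Of the remaining shared genes, Calcoco2, an autophagy receptor, rose from 4.41 and 4.97 FPKM to 12.3 and 12.6 in Std and from 171 and 161 to 274 and 291 in 2i. Its coating difference of 1.00 ± 0.11 (adjusted p = 0.0217) was small beside its medium difference of 4.64 (adjusted p = 8.3e-07). Upf3a, a factor of nonsense-mediated decay, rose from 14.2 and 12.7 FPKM to 30.3 and 30.2 in Std and from 15.7 and 16.3 to 30.9 and 25.9 in 2i, with no effect of the medium called. It rose by 0.95 ± 0.12 (adjusted p = 0.0245), and all LM511 libraries were above all gelatin libraries. Ube2m, the conjugating enzyme of NEDD8, rose by 0.59 ± 0.08 (adjusted p = 0.0335), from 57.7 and 58.1 to 88.6 and 81.4 in Std and from 63.0 and 74.6 to 103 and 111 in 2i.

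The other 3 shared genes were low in at least 1 group, where a pseudocount of 1 FPKM understates the change. Cited4, a partner of the coactivators CBP and p300, was at 0 and 0.554 FPKM on gelatin and 4.04 and 2.64 on LM511 in Std, and at 6.2 and 10.8 against 36.5 and 42.1 in 2i (1.95 ± 0.25, adjusted p = 0.0245). Sepsecs, an enzyme of selenocysteine synthesis, had 1.39 and 1.18 against 4.71 and 5.22 in Std, and was listed at 0 in both gelatin libraries against 1.30 and 2.18 in 2i (1.41 ± 0.20, adjusted p = 0.04). D930048N14Rik had 2.88 and 3.86 FPKM on gelatin in Std and 1.62 and 1.77 in 2i, and was listed at 0 in all 4 LM511 libraries (adjusted p = 0.0265). A 0 in these files can be a failed estimate, and the size of these differences depends on the pseudocount and the gene value: over the alternatives the difference of Cited4 ran from 1.94 to 2.98, that of Sepsecs from 1.38 to 3.02 and that of D930048N14Rik from -4.63 to -1.77. None of the 3 was called once any 1 library was left out. The same held for Bnip3, Ccn1, Ccn2, Col4a1, Gsto1, Htra1, Ldhb, Lmna, Mat2a, Phyh, Sfrp1 and Ube2m.

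Keratins and other trophoblast markers did not follow both media. Krt8 was at 4.77 and 5.19 FPKM on gelatin and 87.3 and 93.4 on LM511 in Std, but at 9.51 and 11.9 against 12.5 and 13.6 in 2i. Krt18, its partner, went from 10.2 and 10.7 to 75.5 and 76.7 in Std and from 4.52 and 3.66 to 5.76 and 10.6 in 2i. Both were separated upwards in each medium, yet the differences were far from equal (3.93 and 0.27 for Krt8, 2.75 and 0.80 for Krt18). Of 11 tested keratins and partners, 0 met the rule, and of 13 tested trophoblast markers 1 did, upwards (Rhox6, 1.87, adjusted p = 0.248). The background is 5.3% upwards and 3.49% downwards. The summed level of the trophoblast markers was 36.0 to 50.3 FPKM on gelatin and 219 to 229.9 on LM511 in Std, and 51.9 to 71.5 against 47.5 to 52.9 in 2i, so in 2i it was not higher on LM511. The part of such cells in the shared differences was not tested.

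In the other lists, 0 to 2 tested members met the rule of sign, size and separation in each direction, where the background is 5.3% upwards and 3.49% downwards. Of these genes Tdgf1, Ddit4 and Gsto1, described above, passed the test. Of 16 tested genes of cadherins, claudins and junctions, 2 met it upwards: the tight junction genes Cldn6 and Cgn (0.73 ± 0.14, adjusted p = 0.0938). Cldn6 had 30.3 and 25.4 FPKM on gelatin and 104 and 80.3 on LM511 in Std, and 2.43 and 0 against 8.15 and 8.30 in 2i, a difference of 2.00 ± 0.35 (adjusted p = 0.0746). Its libraries were separated in both media but not past the threshold. Of 15 tested imprinted genes, 2 met it upwards, Sgce (0.56) and H19. The noncoding RNA H19 had 14.1 and 16.7 FPKM against 79.7 and 88.0 in Std and 2.40 and 0 against 4.41 and 3.95 in 2i (1.93 ± 0.37, adjusted p = 0.0938). Of 13 tested formative and primed genes, Nes (0.63) met it upwards and the transcription factor gene Otx2 (-0.97, adjusted p = 0.17) downwards, and Nes is also 1 of 5 tested neuroectoderm markers.

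Of 14 tested p53 targets, Phlda3 met the rule upwards (0.69, adjusted p = 0.0603) and Ddit4 downwards. Of 18 tested genes of oxidative stress and glutathione, Gsto1 met it upwards and Gpx7 (-0.50) downwards. Of 16 tested annexins, S100 proteins and galectins, 0 met it upwards and Anxa11 (-0.40) met it downwards, and the list's median was 1.10 in Std and 0.01 in 2i. Anxa3 of that list had 1.49 and 0.417 FPKM on gelatin and 20.8 and 17.8 on LM511 in Std, and 1.60 and 1.00 against 3.80 and 3.16 in 2i (2.20 ± 0.49, adjusted p = 0.123). It was separated in both media, with the larger difference in Std. Of 12 tested germline genes, Tdrd1 (0.24) met the rule upwards and Sohlh2 (-0.62) downwards. In 2i, Tdrd1 was at 0 in both gelatin libraries and at 0.083 and 0.169 FPKM on LM511. Of 24 tested ribosomal protein genes, Rplp0 (0.12) met the rule upwards. Of 6 tested 2-cell-like genes Tcstv3 (0.62, at 1.81 FPKM or less in every library) did. Of 16 tested naive genes Sall4 (0.28) did. Of 14 tested Eph receptors and ephrins, 3 tested mesendoderm markers and 3 tested fibroblast markers, 0 met it in either direction. The summed level of the mesendoderm markers was 1.09 to 1.26 FPKM on gelatin and 0.94 to 2.17 on LM511 in Std, and 9.6 to 11.9 against 5.51 to 6.41 in 2i, where the coatings did not overlap. The part of such cells in the shared differences was not tested.

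The number of called genes was lower whichever library was left out. In 2i, leaving out LM511 replicate 1 gave 15 called genes, and leaving out LM511 replicate 2 or either of the gelatin libraries gave 9. In Std, 7 genes were called once LM511 replicate 1 was left out, 4 and 2 once the first and the second gelatin library were, and 0 once LM511 replicate 2 was, where 1158 genes had an unadjusted p under 0.05 (limma). Id2 and Tpm4 were called in 7 of these 8 fits, Neat1 in 6, and Bex1 and Ddit4 in 5. Another 5 genes were called in 2, 7 in 1 and 15 in 0. The direction of each of the 32 genes was the same in all 8 fits. It could not have turned, since the coatings of each gene did not overlap in either medium, so this is no separate support. With 1 mean per group in place of the additive model, 121 genes (1.18%) were called for the mean coating difference, the 32 among them, and 55 of them met the rule of shared size.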

How the data were processed

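8 RNA-seq libraries were used, 4 on LM511 and 4 on gelatin, grouped by their titles. The build mm10 and the programs TopHat2 2.1.1 and Cufflinks 2.1.1 are named in the submitters' processing notes; for their roles and settings, the annotation and the strandedness, the entry is: not given in the sources used here. The authors deposited FPKM values per gene and per transcript, and 0 sample columns were left out. Of the values that reach 1 FPKM by transcript sums, 47.3% stand at 0 in the deposited gene file, so a gene's FPKM is the sum over its RefSeq transcripts, of which 31786 of 32688 matched a symbol in the GRCm38.p6 table. Rows of 21844 assembled transcripts were left out. Their summed FPKM ran from 74395 to 671094 between libraries. That of the RefSeq rows ran from 462080 to 472822 on gelatin and from 476001 to 509449 on LM511, without overlap of the coatings. The main fit did not rescale the libraries, so small upward differences may hold part of this offset.

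Genes reaching 1 FPKM in at least 2 libraries were kept. Of these, 966 with doubtful zeros were set aside (a replicate at 0 beside one of at least 5 FPKM, or a group at 0 beside a group mean of at least 5), leaving 10278. limma 3.58.1 in R 4.3.3 (lmFit, eBayes with trend) was fitted to log2(FPKM + 1) with medium and coating as terms (5 residual degrees of freedom) and Benjamini-Hochberg adjustment over all genes; a fit with 1 mean per group (4 residual degrees of freedom) gave the media separately, the interaction and 95% intervals. All 8 libraries share 1 estimate of the spread, and folds of low genes are understated on this scale. The procedure was tested on simulated data.

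Members and lists were chosen with earlier results of these data known. Named were, among shared genes averaging at least 5 FPKM on the higher coating in both media, the 12 highest and 12 lowest differences and the 5 most abundant in each direction; up to 3 shared genes of each list or else its largest difference; a fixed receptor and pluripotency panel; and the genes nearest to the limit on size. Cited4, Sepsecs, Ube2m, Tceal9, D930048N14Rik, Krt18, Lrp2, Id1 and Id3 were named after their values were seen. So were the Bex and Tceal relatives, Cdc20, Pfdn1 and list members that met the rule without the test. The 250 bases upstream of the start were used from the RefSeq promoter windows. Alternatives changed the pseudocount, filter, zeros, scaling, gene value, model, limit on size and libraries.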

Additional observations from a re-analysis of the deposited data

Results flagged for a closer look

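Krt8 and Ccn1 were 2 of the 19 genes whose coating difference was not the same in the 2 media by limma's interaction test. The other genes called by it are not described here. For Krt8 the difference in 2i minus that in Std was -3.66 on the log2 scale (95% interval -4.20 to -3.13, adjusted p = 0.0114). For Ccn1 it was -1.39 (95% interval -1.76 to -1.02, adjusted p = 0.0415). The LM511 libraries lay above the gelatin libraries in both media for both genes, with the larger difference in Std.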

How the results depend on the processing

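All 32 called genes kept their direction under every alternative in which they had a value. With 1 library left out, the separation of the libraries fixes this in advance. Over 9 alternatives that kept all 8 libraries, Lmna was called in 3, and Actg1, Ldhb and Socs3 in 4 each. Id2, Tpm4, Neat1 and Bex1 were called in all 9. With a pseudocount of 0.1, doubtful zeros kept, quantile normalization, median scaling or the highest RefSeq transcript alone, 28 to 32 genes were called, of which 26 to 29 were among the 32. Without a filter on low values, 13 genes were higher on LM511, 12 of them shared. With the deposited gene table, where 2784 genes could be tested, 2 were higher and 2 lower, 2 and 2 of them shared, and 94 and 50 met the rule without the test. Only 2 of the 32 genes had a value there, and both were called. With 1 mean per group 88 were higher and 33 lower, and 39 of the higher ones were shared. With a replicate block 3 were higher and 2 lower, 3 and 2 of them shared. Same-numbered libraries did not deviate together across genes (correlations of -0.02 to 0.019). That cannot show whether they were grown or prepared together. Leaving out 1 library gave 0 to 9 higher genes and 0 to 6 lower genes, with 0 to 9 and 0 to 6 shared. A filter of 5 FPKM called 43 of 6840 genes. With a ratio of at least 0.67, 14 higher and 10 lower genes were shared. In the same fit the medium called 1250 genes higher in 2i and 1319 lower. The depth behind low values is unknown.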

Other observations

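Among the 966 genes set aside for doubtful zeros, 24 had all 4 LM511 libraries separated from all 4 gelatin libraries. Of these, 3 were listed at 0 in every gelatin library: Atp5pb (194, 192, 177 and 176 FPKM on LM511), Bptf (10.5, 8.82, 10.8 and 2.88) and 9430015G10Rik (6.41, 7.90, 5.22 and 2.43). Atm was lower on LM511, with 8.60, 6.89, 7.52 and 8.96 FPKM on gelatin and 0, 0, 0.927 and 0.723 on LM511. A listed 0 can be a failed estimate in these files, so no fold or test is given.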
